A study of Mus musculus with 8 samples.

Results

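The Hox genes are the classical targets of Mll1 (also known as Kmt2a, a histone methyltransferase), and all 39 of them in the mouse, the genes whose symbol is Hox followed by a cluster letter and a number, were followed here through 8 libraries of intestinal stem cells. Of the 39 genes, 11 lie in the HoxA cluster, 10 in HoxB, 9 in HoxC and 9 in HoxD, and they were matched by identifier in a count table of 53801 genes. Each library came from Lgr5-GFP+ cells sorted from the intestinal crypts of 1 adult mouse. All mice carried the β-catGOF mutation, a stabilized form of β-catenin, and 4 were labelled β-catGOF; Mll1-/- (mice J_7075, J_7096, J_7135 and J_7136) while 4 were labelled β-catGOF; Mll1+/- (mice J_7079, J_7100, J_7134 and J_7139). Both mutations were induced by Lgr5-EGFP-IRES-CreERT2, which is active only in cells that use the Lgr5 promoter, with tamoxifen at 50 mg/kg on 3 consecutive days in mice 4 to 6 weeks old, and cells were taken at day 10 after induction. In the Mll1+/- mice, recombined cells had lost 1 copy of Mll1, and no library from mice without these mutations was analysed here. The paper reports crypts without recombination beside mutant ones. Cells were sorted by Lgr5-GFP, and the share of recombined cells in each library was not measured here. In sentences that list 4 values, the libraries stand in the order given here.

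Hox genes encode homeodomain transcription factors that give cells their position along the head-to-tail axis. Within a cluster they are arranged in the order in which they are used along that axis: low numbers anterior, high numbers posterior, with genes of the same number in different clusters forming a paralogous group. Mll1 belongs to the Trithorax group, which keeps Hox genes on in embryos and in blood progenitors against Polycomb silencing, and a CXXC domain of Mll1 binds CpG sites that are not methylated. In the gut, Hox genes are known chiefly for regional patterning, and the surrounding mesenchyme is a known site of their expression.

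The promoters of 4 members are printed for their CpG density, since the CXXC domain of Mll1 binds CpG sites that are not methylated. CpG density ranged widely both among Hox genes that reached 10 counts in a library and among those that did not. Methylation was not measured here. RefSeq starts on GRCm38.p6 were matched for 22 of the 39 genes, with 24 windows of the 250 bases before a start. The windows of Hoxa5 (chr6:52204588-52204837, minus strand) and Hoxa9 (chr6:52227371-52227620, minus strand) belong to genes with 74 and 88 counts over the 8 libraries. Those of Hoxd13 (chr2:74667975-74668224, plus strand) and Hoxd8 (chr2:74704365-74704614, plus strand) belong to genes with 1 and 11 counts, at most 3 in a library. None of the 4 windows touches an annotated exon of the count table, whereas 10 of the 24 do. The sequences run 5′ to 3′ on the strand of the gene, with each CG in capitals.
Hoxa5: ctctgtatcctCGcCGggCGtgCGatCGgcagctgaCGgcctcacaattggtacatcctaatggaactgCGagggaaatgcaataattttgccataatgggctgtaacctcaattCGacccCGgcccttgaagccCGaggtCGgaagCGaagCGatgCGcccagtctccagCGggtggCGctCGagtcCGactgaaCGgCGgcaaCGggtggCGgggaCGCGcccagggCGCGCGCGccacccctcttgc
Hoxa9: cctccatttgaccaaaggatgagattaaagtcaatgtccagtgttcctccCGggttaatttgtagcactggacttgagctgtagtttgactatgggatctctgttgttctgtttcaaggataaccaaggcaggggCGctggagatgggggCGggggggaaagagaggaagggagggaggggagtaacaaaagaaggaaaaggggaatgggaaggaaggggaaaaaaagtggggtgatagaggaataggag
Hoxd13: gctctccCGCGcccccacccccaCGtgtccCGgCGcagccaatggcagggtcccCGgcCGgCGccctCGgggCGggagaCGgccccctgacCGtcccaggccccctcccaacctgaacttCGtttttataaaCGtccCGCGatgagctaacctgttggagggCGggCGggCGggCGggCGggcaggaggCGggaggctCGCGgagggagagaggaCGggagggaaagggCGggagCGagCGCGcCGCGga
Hoxd8: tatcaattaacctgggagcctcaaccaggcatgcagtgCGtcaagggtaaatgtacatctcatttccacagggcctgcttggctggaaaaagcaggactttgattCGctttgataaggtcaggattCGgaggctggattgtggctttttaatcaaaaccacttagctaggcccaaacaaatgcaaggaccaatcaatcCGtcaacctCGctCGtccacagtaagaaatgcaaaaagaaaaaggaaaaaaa
Hoxa5 held 28 CG and Hoxa9 held 3, while Hoxd13 held 31 and Hoxd8 held 6. The median was 12.5 CG over the 24 Hox windows and 6 over 32851 windows of the same length from all promoters, of which 7.61% held at least 28 and 71.0% held at least 3. For the Hox genes that reached 10 counts in a library, 7 windows held 3 to 28 CG (median 7). For the rest, 17 windows held 2 to 35 (median 13). The letters TTTATG on either strand, part of the recognition sequence of Cdx factors, stood in 5 of the 24 Hox windows (20.8%) and in 10.8% of all windows. The Hox-Pbx motif TGATNNAT, searched in the same way, stood in 4 Hox windows (16.7%) and in 7.68% of all windows, and matches of both motifs were allowed to overlap. Windows of 1 gene, and windows that abut in a cluster, are not independent of each other, and a match is a description of the letters alone.

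Few reads came from Hox genes in these stem cells. The 8 libraries held 14468751 to 16847793 counts on genes, of which 82 to 189 fell on the 39 Hox genes together. A gene at the floor of 3 counts lay between 0.162 and 0.241 CPM (counts scaled for depth by edgeR with TMM library sizes), and these floors cover counting error only. At least 1 count was found for 37 Hox genes, of which 21 reached 3 counts in a library, and values under the floor cannot be told from 0. Hoxc12 and Hoxd4 had 0 counts in all 8 libraries. Every exonic base of Hoxd4 is shared with another annotated gene, so the counting, which left out reads that overlap more than 1 gene, could assign it none and its 0 says nothing of its expression. The same rule reached 62.8% of the exonic bases of Hoxd3 and 52.9% of those of Hoxb3. Of the 37 genes, 6 were seen in every library: Hoxa5, Hoxa7, Hoxa13, Hoxb1, Hoxb2 and Hoxb7. In the table of normalised values that the authors kept for expressed genes, 16 Hox genes are present and 23 are absent, the present ones having at least 11 counts in all and the absent ones at most 10. In a single library 16 to 23 different Hox genes had at least 1 count. This number was 17 to 23 in the β-catGOF; Mll1+/- libraries and 16 to 18 in those labelled β-catGOF; Mll1-/-. At the floor of 3 counts it was 9 to 12 and 7 to 12.

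**Figure D1:**
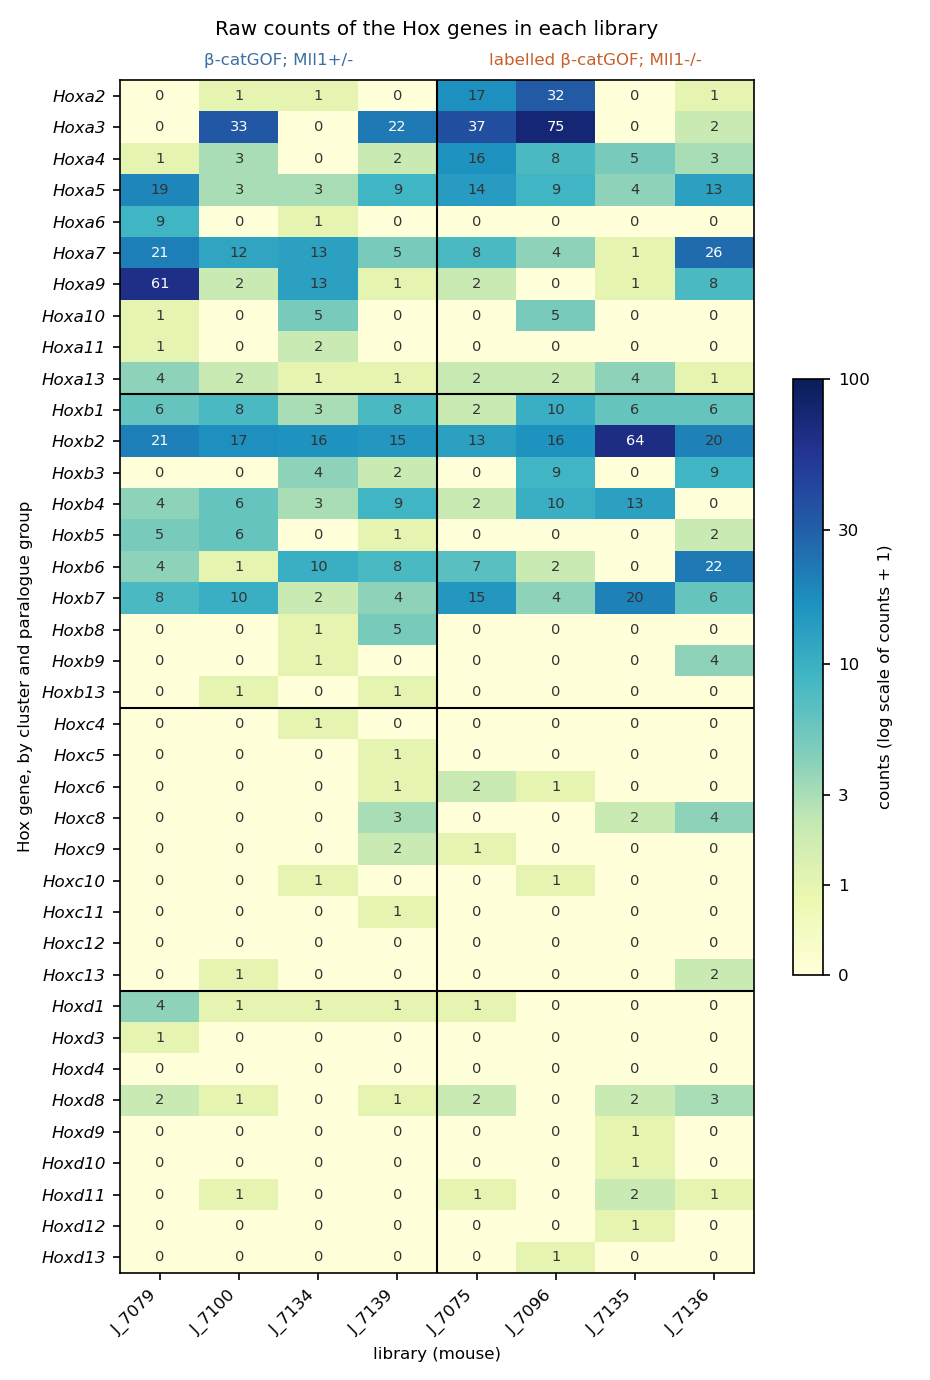
Raw counts of the Hox genes reported singly (rows, by cluster and paralogous group) in the 8 libraries (columns, by genotype label), with the number of counts in each cell and colour on a log scale of counts + 1. Counts gather in HoxA and HoxB, while no HoxC or HoxD gene exceeds 4 counts in a library.

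The libraries were named by their labels because transcripts of Kmt2a, the gene that encodes Mll1, did not separate them. Kmt2a stood at 59.5, 62.6, 78.5 and 53.5 CPM in the libraries labelled β-catGOF; Mll1-/- and at 50.2, 64.9, 51.2 and 48.9 CPM in the others (log2 fold change 0.24, standard error 0.17, edgeR adjusted p = 0.710). The counts cover the whole gene and do not show whether the deleted exons were present. J_7135 stood apart from the rest, since its closest library reached a Spearman correlation across genes of 0.909, against 0.947 or more for each of the others. Sex is not labelled. The cells carried the stem cell marker Lgr5 (215 to 308 CPM). Olfm4, another stem cell marker, was at 8080 to 14429 CPM in the libraries labelled β-catGOF; Mll1-/- and 19281 to 22949 CPM in the others, without overlap but not called (edgeR adjusted p = 0.2). Axin2, of the same marker list, went the other way, at 185 to 267 and 149 to 183 CPM (edgeR adjusted p = 0.384). The labels overlapped for the rest of that list, Lgr5, Ascl2, Smoc2 and Epcam. Values without J_7135 are given for the HoxA and HoxB levels, and for the fold changes of Hoxb2, Hoxa7 and Snx11, a gene beyond HoxB. Of 12 mesenchyme markers, only Vim passed the filter on low counts, at 0.194 to 4.89 CPM in the β-catGOF; Mll1+/- libraries and 44.3 to 116 CPM in those labelled β-catGOF; Mll1-/-. The 11 other mesenchyme markers, collagens and smooth muscle genes among them, summed to 1.41 to 2.07 and 0.919 to 3.35 CPM. Summed over 5 markers of the proximal small intestine, levels were 153 to 253 CPM in the β-catGOF; Mll1+/- libraries and 40.4 to 110 CPM in the others. Onecut2 gave most of each sum, at 111 to 192 and 33.4 to 83.0 CPM. Gata4, another of the 5, is reported by the paper as lower after Mll1 loss, and was at 29.3 to 37.8 and 3.55 to 19.4 CPM. The libraries overlapped for 3 ileum markers (4.39 to 16.2 and 6.43 to 21.2 CPM) and for 3 colon markers (1.68 to 15.1 and 0.328 to 8.57 CPM). The part of these cell types and regions in the Hox levels was not tested, and in bulk samples fewer cells of a type and less RNA per cell cannot be told apart.

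HoxA and HoxB supplied nearly all Hox transcripts. Over the 8 libraries HoxA gave 555 of the 1060 Hox counts (52.4%), HoxB gave 452 (42.6%), HoxC gave 24 (2.26%) and HoxD gave 29 (2.74%). On the mm10 assembly HoxA spans chromosome 6 from 52155590 to 52260880 and HoxB spans chromosome 11 from 96194316 to 96368256. HoxC lies on chromosome 15 from 102921103 to 103036852, and HoxD on chromosome 2 from 74668310 to 74765142. The summed level of HoxA was 5.66, 7.82, 0.919 and 3.55 CPM in the libraries labelled β-catGOF; Mll1-/- and 7.001, 3.94, 3.13 and 2.65 CPM in the β-catGOF; Mll1+/- libraries. Mean HoxA levels, 4.49 ± 2.95 and 4.18 ± 1.96 CPM (SD, n = 4 each), differed by far less than the spread, and J_7135 was the lowest of all. The log2 ratio of these means, the Mll1-/- label over the other, was 0.10, and 0.44 without J_7135. Leaving out single libraries moved it between -0.31 and 0.47. HoxB summed to 2.30, 2.95, 5.57 and 4.53 CPM against 2.87, 3.45, 3.21 and 3.42 CPM, with means of 3.84 ± 1.49 and 3.24 ± 0.266 CPM (SD, n = 4 each). Here J_7135 was the highest library, and the genotypes overlapped. The log2 ratio of the mean HoxB levels, the Mll1-/- label over the other, was 0.25, and 0.011 without J_7135. HoxC had 0 to 8 counts and HoxD 1 to 7 counts in a library, again with overlap. No cluster level was given a p-value, because the members were chosen with earlier results of these data known.

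**Figure D2:**
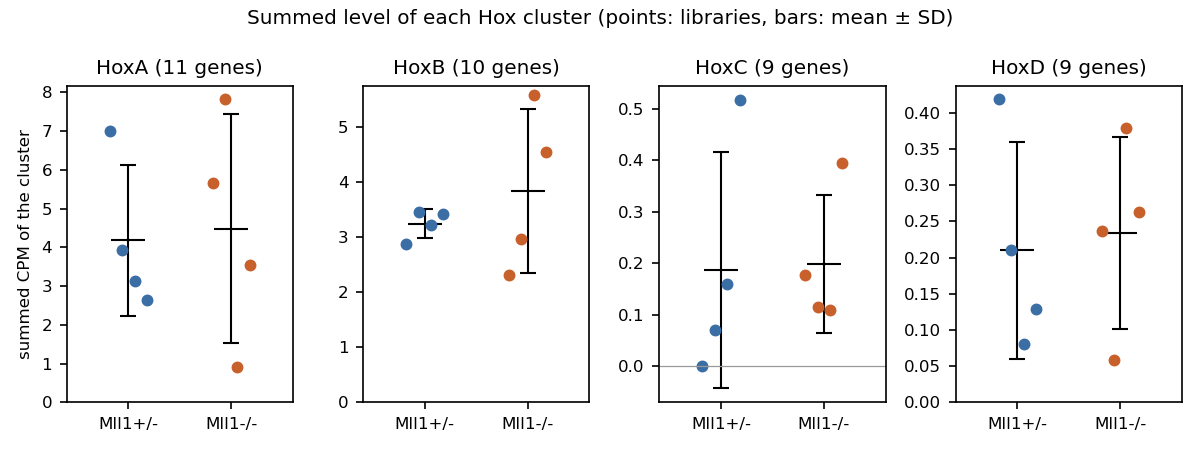
Summed CPM of the genes of each Hox cluster (y axis, from 0 where no bar crosses it, with a separate scale for each panel) by genotype label, with a point for each library and bars for the mean ± SD of 4 libraries. The libraries of both labels overlap in all 4 panels.

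Along the axis order, anterior genes (paralogous groups 1 to 3) held 488 counts, central genes (4 to 8) held 428 and posterior genes (9 to 13) held 144. Anterior genes had 322 counts under the Mll1-/- label and 166 in the β-catGOF; Mll1+/- libraries, and their levels were 4.69 ± 2.47 and 2.83 ± 1.09 CPM (SD, n = 4 each). J_7096 alone held 142 of these counts, and the libraries overlapped. Central genes were close, at 3.46 ± 1.37 and 3.30 ± 0.732 CPM (SD, n = 4 each). Posterior genes had 41 and 103 counts, in levels of 0.617 ± 0.301 and 1.68 ± 1.69 CPM (SD, n = 4 each), and 61 of the 103 were Hoxa9 counts in J_7079. Without Hoxa9, the posterior sum was 0.236 to 0.525 CPM in the libraries labelled β-catGOF; Mll1-/- and 0.323 to 0.802 CPM in the others. Per kilobase of exon, the highest mean levels over the 8 libraries were those of Hoxb2 (0.400 CPM per kb), Hoxb7 (0.339), Hoxa5 (0.305), Hoxa7 (0.258) and Hoxb6 (0.229). The spread between libraries was too wide to order these genes, since each of them had libraries both above and below the mean of its neighbours. The cluster that led differed between the paralogous groups: Hoxb2 had more counts than Hoxa2, whereas Hoxa3 and Hoxa5 had more than Hoxb3 and Hoxb5.

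**Figure D3:**
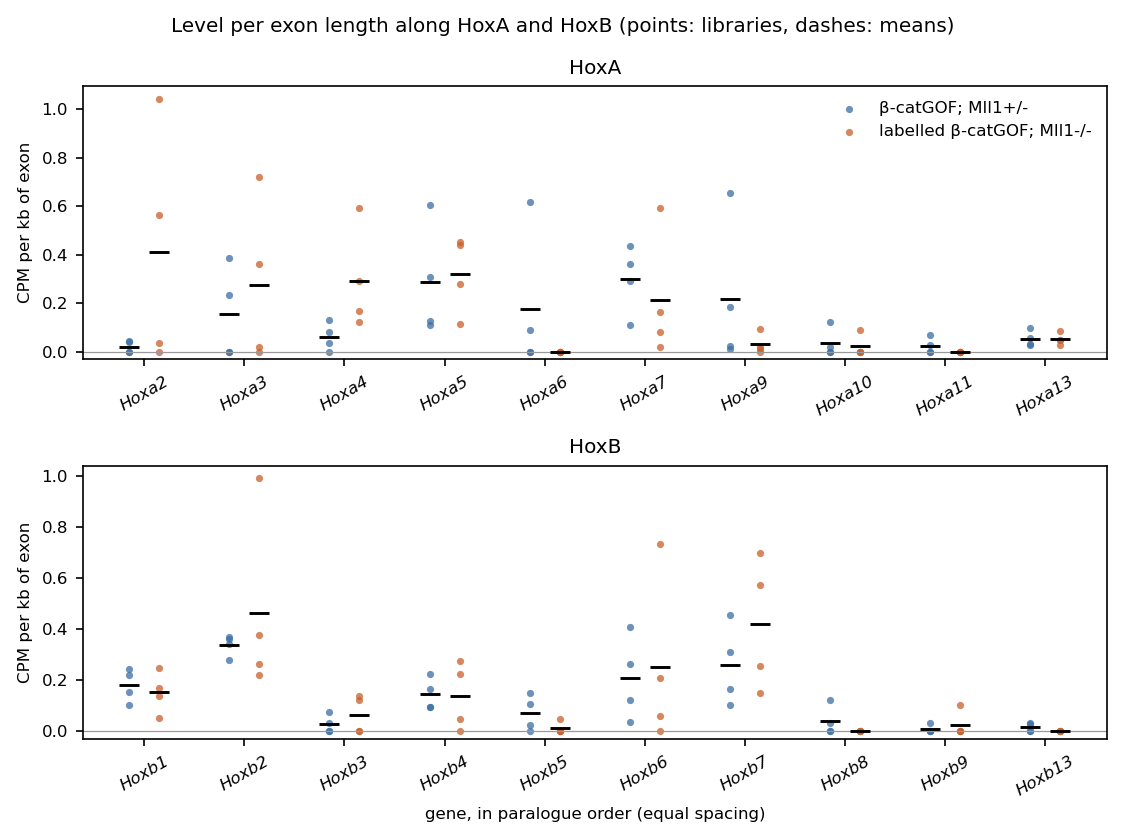
Level per kilobase of exon (y axis, CPM per kb) of genes of HoxA and HoxB in paralogous order (x axis, equal spacing), with a coloured point for each library of either label and a black dash for the mean of 4 libraries. Levels lie near 0 from Hoxa10 and from Hoxb8 onward, and the highest point of a gene often comes from a single library.

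The question of the comparison was whether Hox genes depend on Mll1 in these cells. Only 3 Hox genes, Hoxa3, Hoxa7 and Hoxb2, passed the filter on low counts and entered the test across 16445 genes (edgeR's quasi-likelihood test, two-sided, Benjamini-Hochberg adjustment). None of the 3 had an adjusted p under 0.1, where 14 genes or 0.0851% of all genes tested did. DESeq2, in which 2.47% of the genes passed 0.1, and limma-voom, in which 0.0365% passed, also called 0 of the 3, with Hoxa7 left unadjusted by DESeq2. An unadjusted p under 0.05 (edgeR) was reached by 0 of the 3 and by 9.15% of all genes, and the libraries of the labels were fully apart in 0 of the 3 and in 6.28% of all genes tested. Hoxa3 and Hoxb2 had log2 fold changes above 0 and Hoxa7 below. Their median was 0.46, against 0.01 for all genes tested. This median was -0.47 with the library-number series as a block and -0.11 with Xist as a covariate. When single libraries were left out, 3 to 5 Hox genes passed the filter, and the median of those lay between 0.15 and 0.70. Of the 3 genes themselves, Hoxa3 and Hoxa7 were both below 0 without J_7096 (-0.27 and -0.23). Hoxa7 and Hoxb2 were both below 0 without J_7135 (-0.12 and -0.23). A count of 3 is too small to describe the family, and the 36 other genes are given as raw counts.

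Hoxa3 (ENSMUSG00000079560, chromosome 6 from 52169062 to 52213336), needed for the thymus and parathyroid in the embryo, was either well detected or missing. It had 37, 75, 0 and 2 counts under the Mll1-/- label and 0, 33, 0 and 22 counts in the β-catGOF; Mll1+/- libraries. Both labels thus had libraries at 0 and libraries above 20 counts, and the level of 0 occurred in J_7135, J_7079 and J_7134. In edgeR the change was 0.83 ± 1.59 on the log2 scale (estimate ± standard error), with an adjusted p = 0.913, and 2 standard errors to either side span -2.36 to 4.01. Its biological coefficient of variation was 1.69, against a median of 0.349 over all genes tested. The header of the count table numbers the libraries in 2 series, J_7075, J_7079, J_7096 and J_7100 in the first and J_7134, J_7135, J_7136 and J_7139 in the second. Hoxa3 was higher in the Mll1-/- label of the first series by 2.69 on the log2 scale (log2 of CPM + 0.1), and the same difference was -1.36 in the second. With the series as a block the fold change was -0.47, with Xist as a covariate -0.11 and without J_7096 -0.27. Exons of other genes, Hoxaas3 among them, cover 27.1% of the exonic bases of Hoxa3, and reads in shared bases were not counted.

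Hoxb2 (ENSMUSG00000075588, chromosome 11 from 96350525 to 96354012), a hindbrain patterning gene, had the most counts of any Hox gene (182) and the lowest biological coefficient of variation of the 3 tested (0.574). J_7135 held 64 of the 182, and without that library Hoxa3, with 169 counts and 0 in J_7135, had more. Hoxb2 had 13, 16, 64 and 20 counts under the Mll1-/- label and 21, 17, 16 and 15 in the β-catGOF; Mll1+/- libraries. Apart from J_7135 all libraries lay between 0.767 and 1.31 CPM, and J_7135 reached 3.46 CPM. The edgeR estimate on the log2 scale was 0.46 ± 0.57 (standard error) at an adjusted p = 0.853, which was turned to -0.23 by leaving out J_7135. By 2 standard errors to either side it lay between -0.67 and 1.59. Exons of Hoxb3os, an antisense transcript, cover 27.3% of Hoxb2, and the counting did not use strand.

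Hoxa7 (ENSMUSG00000038236, chromosome 6 from 52214491 to 52221854), a thoracic patterning gene and a well-known Mll1 target in embryonic cells, was found in all 8 libraries. The libraries labelled β-catGOF; Mll1-/- had 8, 4, 1 and 26 counts and the β-catGOF; Mll1+/- libraries had 21, 12, 13 and 5. Its lowest libraries, J_7135 and J_7096, and its highest, J_7136, all carried the Mll1-/- label. Mean levels were 0.616 ± 0.747 and 0.866 ± 0.400 CPM (SD, n = 4 each). The estimate was -0.50 ± 0.89 on the log2 scale (standard error, edgeR adjusted p = 0.903), and 2 standard errors span -2.27 to 1.27. Without J_7136 the fold change was -1.75 and with limma-voom it was -1.23, while without J_7135 it was -0.12 and without J_7096 -0.23. None of these was called.

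**Figure D4:**
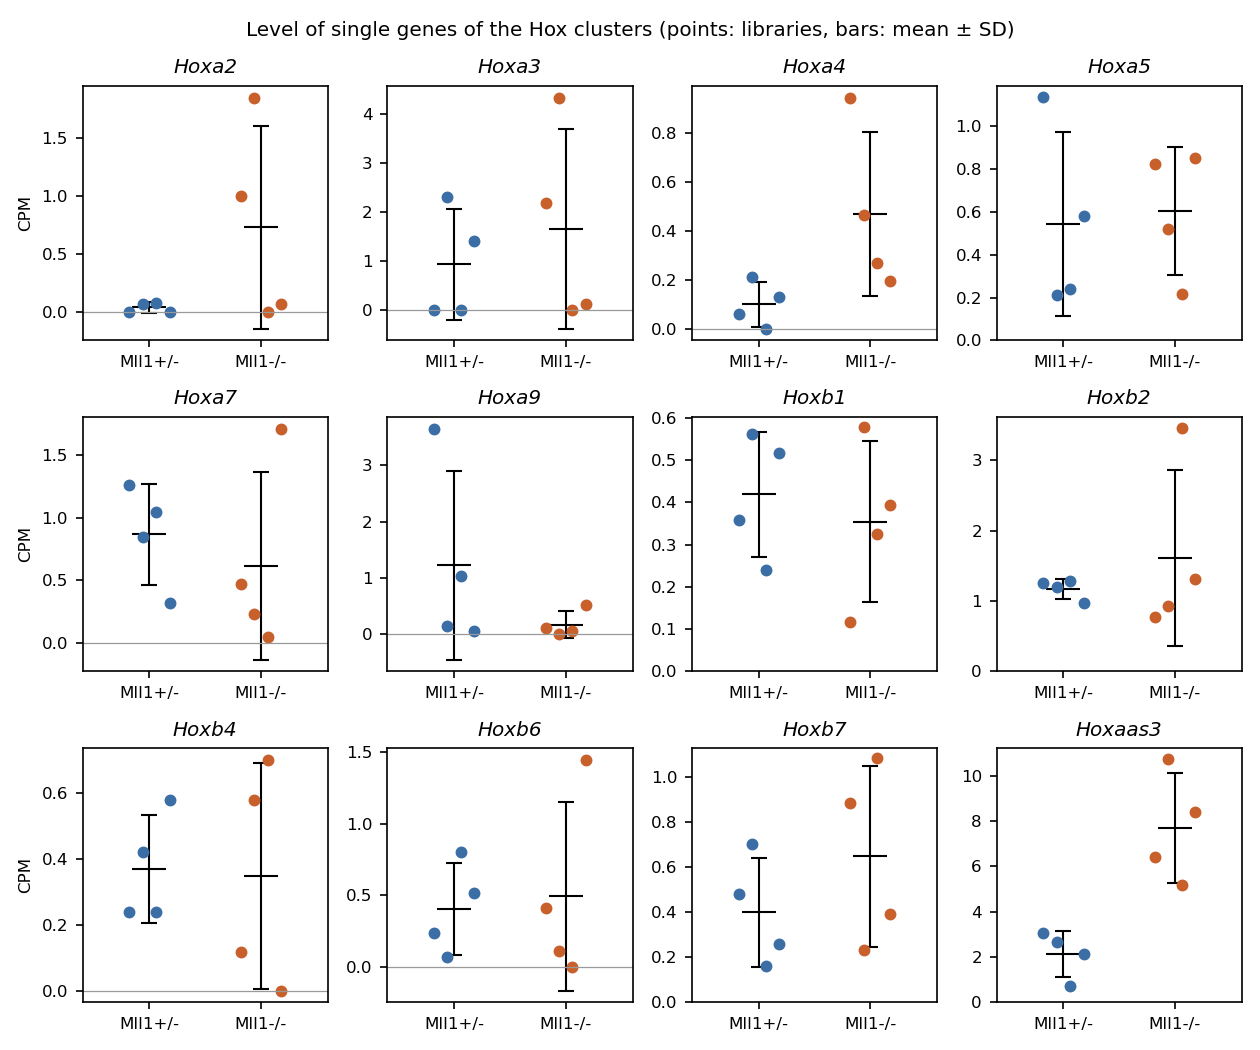
CPM (y axis, separate scale in each panel) of the 11 Hox genes that reached 10 counts in a library and of the antisense transcript Hoxaas3, by genotype label, with a point for each library and bars for the mean ± SD of 4 libraries. The 11 Hox genes overlap between the labels, and Hoxaas3 does not.

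Of the 36 Hox genes below the filter, 34 had counts, and 8 of them reached 10 counts in a library. The exact two-sided permutation test over the 70 assignments of the libraries, whose smallest p is 0.0286, is given for Hoxa5, Hoxb6 and Hoxb7, which reached 10 counts under both labels. Hoxa2, Hoxa4, Hoxb1 and Hoxb4 reached 10 counts only in libraries with the Mll1-/- label and Hoxa9 only in libraries with the other, so these 5 were picked through the label where they were high and are described with no test. In all 8 genes the labels overlapped. Hoxa2, which patterns the second branchial arch, had 17, 32, 0 and 1 counts under the Mll1-/- label and 0, 1, 1 and 0 in the others. Hoxa4 had 16, 8, 5 and 3 counts against 1, 3, 0 and 2. Its lowest library with the Mll1-/- label, J_7136, and the highest of the other label, J_7100, both had 3 counts. J_7075 and J_7096 were the highest pair for Hoxa2 and Hoxa4. For Hoxa3, which lies between these genes in the cluster, J_7096 was the highest library and J_7075 had 2.18 CPM beside 2.32 CPM in J_7100. The level of Hoxa2 to Hoxa4 together was 4.13 and 6.66 CPM in J_7075 and J_7096, and 0.270 and 0.394 CPM in J_7135 and J_7136. In the β-catGOF; Mll1+/- libraries it was 0.0598, 2.60, 0.0802 and 1.55 CPM, so the libraries of the Mll1-/- label spanned nearly the whole range and those of the other label lay within or below it.

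Hoxa5, known from lung and gut development, was spread over all libraries, with 14, 9, 4 and 13 counts under the Mll1-/- label and 19, 3, 3 and 9 under the Mll1+/- label (exact permutation p = 0.914). Hoxa9, the Hox gene best known from Mll1 leukemia and from blood stem cells, came largely from J_7079. It had 2, 0, 1 and 8 counts under the Mll1-/- label and 61, 2, 13 and 1 in the β-catGOF; Mll1+/- libraries. J_7079 thus held 69.3% of all Hoxa9 counts, and also 9 of the 10 counts of its neighbour Hoxa6, as the map of raw counts shows. No other library had more than 1 count of Hoxa6.

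In HoxB, 4 genes below the filter reached 10 counts. Hoxb1, which specifies a hindbrain segment, was the most even of them, with 2, 10, 6 and 6 counts under the Mll1-/- label and 6, 8, 3 and 8 under the other. Hoxb4, known for expanding blood stem cells, had 2, 10, 13 and 0 counts against 4, 6, 3 and 9. Hoxb6 had 7, 2, 0 and 22 counts against 4, 1, 10 and 8 (exact permutation p = 0.857). Hoxb7 had 15, 4, 20 and 6 counts against 8, 10, 2 and 4 (exact permutation p = 0.343). The 4 genes differed in which library was highest: J_7096 for Hoxb1, J_7136 for Hoxb6, and J_7135 for Hoxb4 and Hoxb7. Without Hoxb2, the 9 other genes of HoxB summed to 1.53 to 3.22 CPM under the Mll1-/- label and 1.62 to 2.45 CPM under the other.

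The remaining 28 Hox genes stayed under 10 counts in every library, and 26 of them had any. Among them were Hoxa6, Hoxa10, Hoxa11 and Hoxa13 of HoxA, Hoxb3, Hoxb5, Hoxb8, Hoxb9 and Hoxb13 of HoxB and all genes of HoxC and HoxD. Hoxb3 had the most, 24 counts in 4 libraries. Hoxa13, a gene of the hindgut and limb, was seen in all 8 libraries at 1 to 4 counts. Hoxc8 and Hoxd8 led their clusters with 9 and 11 counts, and the limb and genital genes Hoxd9, Hoxd10, Hoxd12 and Hoxd13 had 1 count each. Among the 34 genes with counts below the filter, 19 had more counts under the Mll1-/- label, 14 had fewer and 1 was equal, and among all 23591 such genes 47.1% had more. In 1 of the 34, Hoxd1, the labels did not overlap, while 1.42% of such genes did not. Hoxd1 had 1, 0, 0 and 0 counts against 4, 1, 1 and 1, so the separation came from the scaling of single counts, and the raw counts overlapped. With the filter removed, 0 of 37 Hox genes had an adjusted p under 0.1 (edgeR), where 0.117% of all genes did, and 3 of 37 had an unadjusted p under 0.05, where 8.39% did. The 3 were Hoxa2, with an estimate above 0, and Hoxa6 and Hoxb8, with estimates below 0 that rest on 10 and 6 counts.

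Inside the clusters lie 47 other annotated genes, antisense transcripts, long noncoding RNAs and microRNA hairpins among them. Of these, 25 had 0 counts in all libraries, among them the hairpins Mir10a, Mir10b, Mir196a-1, Mir196a-2, Mir196b and Mir615. For 10 of the 25, Mir196b among them, every exonic base is shared with another gene, so that no read could be assigned to them. The libraries were primed on poly(A), which hairpins lack, so the 0 counts of the hairpins say nothing of their expression. Hotair, a noncoding RNA of HoxC, had 1 count, and Hotairm1 of HoxA had 27. Only 4 of the 47 passed the filter or reached 10 counts in a library. Hoxaas3 (ENSMUSG00000085696, chromosome 6 from 52175217 to 52215076) is annotated as antisense to the stretch from Hoxa3 to Hoxa7. It had 109, 185, 96 and 128 counts under the Mll1-/- label and 51, 38, 9 and 33 in the β-catGOF; Mll1+/- libraries. Every library with the Mll1-/- label lay above every library of the other, at 5.19 to 10.7 CPM against 0.722 to 3.05 CPM, with means of 7.69 ± 2.41 and 2.14 ± 1.02 CPM (SD, n = 4 each). The log2 fold change was 1.83 (standard error 0.46), with an unadjusted p of 0.00293 and an adjusted p = 0.252 (edgeR), so the difference was not called. Within the library series it was 1.51 and 2.31, and leaving out single libraries moved it between 1.55 and 2.05. DESeq2 gave an adjusted p = 0.0127 and limma-voom an adjusted p = 0.291. Hoxaas3 had more counts than any Hox gene, in 649 counts over all libraries. Exons of Gm28308, Hoxa3 and Hoxa7 cover 30.7% of its exonic bases, and because strand was not used in counting, reads from the 2 strands cannot be told apart. Vim, too, was higher in every library with the Mll1-/- label, and its relation to Hoxaas3 was not tested. J_7135 and J_7136, with 0 and 2 counts of Hoxa3, had 96 and 128 counts of Hoxaas3.

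Of the 3 other genes, 5730596B20Rik, which overlaps Hoxa3, had 5, 22, 0 and 0 counts against 3, 2, 0 and 0. Gm53, a noncoding RNA between Hoxb13 and Hoxb9, had 55 counts in J_7135, 3 in J_7096 and 0 in the other 6 libraries. Gm11539, an annotated processed pseudogene in the same interval, had 937 to 1517 counts in each library (log2 fold change -0.09, standard error 0.16, adjusted p = 0.908, edgeR). Its counts alone exceeded those of all Hox genes in every library, and as a pseudogene it may share reads with its parent copy. Outside the clusters, the 16 nearest tested genes, a pair at each end, stood 23856 to 399299 bases away and had mean levels of 0.513 to 167 CPM. None of them was called (edgeR, lowest adjusted p = 0.449), and 2 of the 16 had an unadjusted p under 0.05, against 9.15% of all genes tested, Hibadh (-0.48) beyond HoxA and Snx11 (1.67) beyond HoxB. Snx11 had 161 counts in J_7135, and without that library the fold change was 0.997 with an unadjusted p of 0.0677 (edgeR). The labels did not overlap for 3 of the 16, these and Atp5g1 beyond HoxB (-0.21), against 6.28% of all genes tested.

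Hox proteins bind DNA with TALE homeodomain cofactors of the Meis, Pbx and Pknox families. Of 9 TALE genes, 4 passed the filter and were tested. None of the 4 had an adjusted p under 0.1 (edgeR), where 0.0851% of all genes tested did. Pbx2 averaged 9.64 ± 3.20 CPM under the Mll1-/- label and 6.12 ± 0.924 CPM in the others (SD, n = 4 each), above the level of any single Hox gene, with a log2 fold change of 0.66 (adjusted p = 0.573, edgeR). Pbx3 had a log2 fold change of -0.14 (adjusted p = 0.936) and Pknox1 of 0.23 (adjusted p = 0.817). The Meis genes, of which Meis1 acts with Hoxa9 in Mll1 leukemia, lay below the filter. Meis1 had 15, 30, 4 and 19 counts under the Mll1-/- label and 6, 0, 4 and 1 in the others. J_7135 overlapped with the other label. Meis2 had 27, 6, 3 and 6 counts against 5, 8, 9 and 17 (exact permutation p = 0.914). Meis3 had 82 counts in J_7135 and 3 to 43 elsewhere. Pbx4 had 1, 17, 14 and 28 counts against 0, 6, 4 and 1, and Pknox2 had at most 5. Meis1 and Pbx4 reached 10 counts only in libraries with the Mll1-/- label and are described with no test.

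The Cdx factors, intestinal homeodomain proteins that bind regulatory regions of Hox genes, were present throughout. Cdx1 averaged 53.6 ± 10.9 CPM under the Mll1-/- label and 45.0 ± 10.8 CPM in the others, and Cdx2 was at 7.33 ± 3.35 and 8.81 ± 3.79 CPM (SD, n = 4 each). Neither was called (log2 fold changes of 0.25 and -0.27, adjusted p = 0.785 and 0.901, edgeR), and Cdx4 had 1 count in all.

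**Figure D5:**
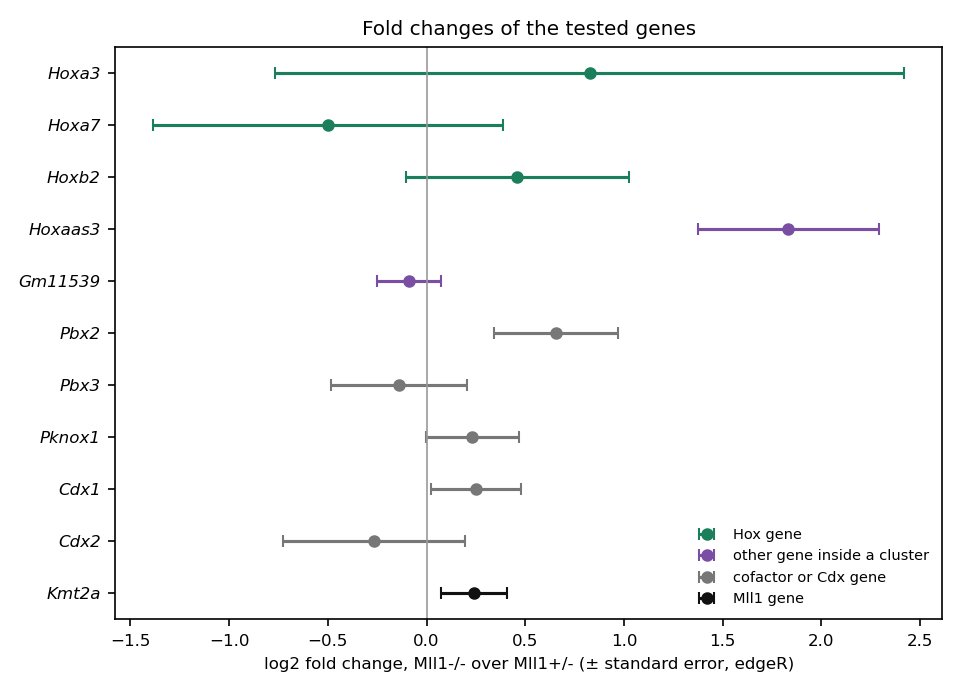
Log2 fold change (x axis, libraries labelled Mll1-/- over Mll1+/-, bars: standard error, edgeR) of the 3 tested Hox genes, 2 other tested genes inside the clusters, tested TALE and Cdx genes, and Kmt2a. The Hox bars are the widest and all cross 0, and Hoxaas3 lies farthest from 0 at 1.83.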

How the data were processed

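Lgr5-GFP+ cells of 8 mice, 1 library per mouse, were profiled by RNA-seq with a poly(A)-primed protocol without molecular identifiers. Per the labels, the file headers and the study's methods, the authors aligned reads to mm10 with GSNAP and counted them on Ensembl release 92 with featureCounts (1.6.3), without strand and leaving out reads that overlap more than 1 gene. The deposited count table holds whole-number counts for 53801 genes and 92 spike-in rows, which were left out of library sizes and tests. The second deposited table holds a signal that the authors normalised with DESeq2 (1.22.2) size factors for 25485 genes. It was used for gene symbols, for which genes the authors kept, and to recompute those size factors.

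Genes were filtered with filterByExpr (minimum count 10, minimum total 15), scaled by TMM and tested with edgeR 4.0.16 (quasi-likelihood, robust, genotype as the term) in R 4.3.3. P-values were Benjamini-Hochberg adjusted over all genes tested, with a threshold of 0.1. They measure the spread between mice. Alternatives were DESeq2 1.42.0 and limma-voom (limma 3.58.1), other scalings and filters, the library-number series as a block, Xist as a covariate and leaving out each library. Single Hox and TALE genes below the filter that reached 10 counts under both labels were compared by an exact two-sided permutation test. The main edgeR fit, and no alternative, was tested on data simulated for the genes that passed the filter. Named genes were all Hox genes, with full values for those tested or with 10 counts in a library, other genes in the clusters by the same rule, the 2 nearest tested genes on each side, and the TALE and Cdx lists. The members and lists were chosen with earlier results of these data known. Promoter sequences came from RefSeq (GRCm38.p6). Some single-gene values are not reported here.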

Additional observations from a re-analysis of the deposited data

Results flagged for a closer look

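In 5 of 67 groups of 4 libraries, 1 library stood so far from its group that its gap to the next library, as a share of the group's range, exceeded Dixon's 95% critical value for 4 samples, and such a value arises by chance in about 5% of groups. Of the Hox genes, only the 11 that reached 10 counts in a library were examined, and none of these was among the 5. Inside HoxB, Gm53 in J_7135 had a share of 0.942. Among the cofactors, Meis3 in J_7135 reached 0.997 and Meis2 in J_7075 reached 0.838. Cdx1 in J_7075 had 0.851, and Kmt2a in J_7100 had 0.86. Outside the genes, J_7100 had 36 counts on spike-in rows, above the floor of 3 counts, while the other libraries had at most 2.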

How the results depend on the processing

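No Hox gene was called under any alternative run, while the count of all genes called ran from 0 to 406 (DESeq2). It was 0 with the series block, the Xist covariate and most single libraries left out, and such runs could not call a Hox gene. The count was 14 in the main test, 8 by upper quartile scaling, 47 without a filter and 6 by limma-voom. It was 34 with at least 10 counts in every library, where Hoxb2 was the only Hox gene tested. Removing the filter gave 3 Hox genes with an unadjusted p under 0.05 in place of 0. Of the 37 Hox genes detected, 21 had at least 3 counts in a library and 11 at least 10, and 34 to 37 were detected when single libraries were left out. The 1 gene whose labels did not overlap by CPM became 0 by raw counts. Hoxa3, and with it the median of the 3 tested Hox genes, turned to -0.47 with the series block and -0.11 with the Xist covariate. Leaving out single libraries moved Hoxa3 between -0.27 and 1.79, Hoxb2 between -0.23 and 0.68, Gm11539 between -0.19 and 0.00048, and Pbx3 between -0.29 and 0.062. It moved the HoxC log2 ratio, 0.09 in the main analysis, between -0.48 and 1.37 (without J_7139). The HoxA ratio moved between -0.31 and 0.47, the HoxB ratio between 0.011 and 0.43, and the HoxD ratio between -0.18 and 0.74. Hoxaas3 passed the threshold with DESeq2 alone (1.84, adjusted p = 0.0127), and its adjusted p over the other alternatives ran up to 0.54. The cause of these changes was not tested. HoxC and HoxD genes had at most 4 counts in a library, too few for a test at this depth.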
